A study of Mus musculus with 24 samples.

Results

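The matrix metalloproteinases and their tissue inhibitors were followed here as 10 transcripts: Mmp2, Mmp3, Mmp8, Mmp9, Mmp12, Mmp13, Mmp14, Mmp19, Timp1 and Timp2. They were taken by gene symbol from the 54532 genes of the table, and each symbol matched 1 row. The list was drawn up with earlier results of these data known. RNA came from mouse bone marrow cultures, either BMDMs (bone marrow-derived macrophages, grown with L929 cell supernatant) or BMDCs (bone marrow-derived dendritic cells, grown with GM-CSF and IL-4). All donor mice carried Tmem173 fl/fl and had received tamoxifen. Tmem173 encodes STING, the receptor for cyclic dinucleotides that drives interferon and NF-kB responses. Libraries labelled WT came from Tmem173fl/fl mice, and libraries labelled CRE from mice that also carried Lzym-Creert2, a tamoxifen-inducible Cre driven by the myeloid Lyz2 promoter. Cells were left without agonist (CT) or received DMXAA (DX), a ligand of mouse STING, at 40 µM by the series text, while the study's methods give its doses in µg/mL, so the concentration is uncertain. The study's methods give tamoxifen to mice some weeks old in more than 1 age range and do not tie a range to the marrow donors. The time with DMXAA for these libraries is not given in the sources used here. The 8 groups held 3 libraries each, with 15657347 to 18912887 counted reads per library. Nothing ties the numbered libraries to separate animals, so p-values measure only the spread between these libraries, which may be technical.

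Matrix metalloproteinases are zinc endopeptidases that are made as inactive precursors and cut collagen, elastin, gelatin and other matrix proteins, as well as cytokines and chemokines. Mmp8 and Mmp13 are collagenases that can cut fibrillar collagen, Mmp2 and Mmp9 are gelatinases, Mmp3 is a stromelysin that also activates other family members, and Mmp12 is the macrophage elastase. Mmp14 is anchored in the plasma membrane and activates pro-MMP2 in a complex with Timp2, and Mmp19 is a secreted enzyme that cuts basement membrane proteins. Timp1 and Timp2 bind the active site of the mature enzymes and block it. In macrophages and dendritic cells this balance serves tissue infiltration and matrix turnover.

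The members lie on 6 autosomes and the X chromosome of GRCm38, and the positions of all 10 in the table equal those of GENCODE M21. Mmp13 (chr9:7272514-7283331, + strand), Mmp12 (chr9:7344381-7369499, +), Mmp3 (chr9:7445822-7455975, +) and Mmp8 (chr9:7558456-7568485, +) stand within 296 kb of each other, in the cluster that holds 10 Mmp genes in this table. The others are Mmp2 (chr8:92827291-92853420, +), Mmp9 (chr2:164940780-164955850, +), Mmp14 (chr14:54431612-54445364, +), Mmp19 (chr10:128790910-128800824, +), Timp1 (chrX:20870166-20874735, +) and Timp2 (chr11:118301069-118355740, -). Timp1 lies inside Syn1, which is on the opposite strand and had 25 to 1553 counts. Mmp19 overlaps Tmem198b on the opposite strand, with 48 to 603 counts. Whether strand was used in counting is not stated, so reads shared by such overlapping genes may not be told apart.

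Promoter windows from RefSeq (GRCm38.p6), which hold 250 bases before and 50 after a transcription start, were found for 7 of the 10 members, in 8 windows. An AP-1 motif, written TGANTCA and equal to its own reverse complement, was in windows of 3 of these 7 members, all in the chromosome 9 cluster. It was in windows of 8.97% of all 27025 genes with a window, and in 7.81% of the 32851 windows. The NF-kB motif, searched on both strands, was in none of the members' windows and in 4.51% of all windows. The 120 bases before the starts of these 3 members, Mmp13, Mmp12 and Mmp3, are shown with the AP-1 match in capitals. Any tie between the motif and the response to DMXAA was not tested. Mmp12 has another RefSeq start further upstream, whose window has no match.
Mmp13, chr9:7272394-7272513, + strand: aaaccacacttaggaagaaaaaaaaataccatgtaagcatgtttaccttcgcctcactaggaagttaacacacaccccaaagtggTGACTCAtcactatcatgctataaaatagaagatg
Mmp12, chr9:7347254-7347373, + strand: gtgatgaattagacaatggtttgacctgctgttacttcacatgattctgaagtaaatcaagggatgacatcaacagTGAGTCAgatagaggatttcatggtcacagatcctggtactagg
Mmp3, chr9:7445702-7445821, + strand: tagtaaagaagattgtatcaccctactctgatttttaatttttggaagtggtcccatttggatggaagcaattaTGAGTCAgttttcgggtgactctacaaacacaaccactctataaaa
The match starts 35 bases before the start of Mmp13, 44 before that of Mmp12 and 46 before that of Mmp3. It is a match of letters, and no binding was measured.

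Several libraries stood apart from their labels or from their group. The 4 BMDM libraries numbered 3 held 42.8 to 72.1 CPM (counts scaled to equal library totals) summed over 10 macrophage markers, against 10827 to 22167 in the other 8, with C1qa at 0, and 13252 to 20366 CPM summed over 10 fibroblast markers. They are given apart below, and tests in BMDMs used numbers 1 and 2. Both WT-labelled BMDM libraries numbered 2 held 498 and 530 CPM of the fibroblast markers, against 40.5 to 74.5 in the other 6. The median marker stood at 24.7 and 31.2 CPM there, against 1.40 to 3.16 in the other 6. Not every marker was raised. Thy1 was at or below 0.425 CPM in all 8, against 361 to 437 in numbers 3, and Lum at or below 0.177, against at most 0.438. Both CRE-labelled BMDC libraries numbered 2 held 197 and 448 CPM over 12 neutrophil markers, against 13.7 to 86.1 in the other 10 BMDC libraries, and 2198 and 2336 CPM of macrophage markers against 6127 to 9095. Dendritic cell markers summed to 6230 to 10635 CPM in BMDCs and 179 to 663 in the 8 BMDM libraries. The floxed gene itself, Tmem173, was still read in each CRE-labelled library. In BMDMs, numbers 3 included, it stood at 8.76 to 11.6 FPKM in CRE and 9.91 to 16.3 in WT controls. Under DMXAA these were 9.12 to 15.1 and 20.9 to 31.8, without overlap. In BMDCs it stood at 19.7 to 36.8 in CRE and 28.8 to 51.6 in WT controls. Under DMXAA the BMDC ranges were 24.3 to 35.1 and 34.6 to 55.3. FPKM is a count scaled by gene length and library depth, here on the authors' scale. A value over the whole gene does not show whether the floxed part was lost. In bulk RNA, fewer cells of a type and less RNA per cell cannot be told apart.

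Mmp12 was the most abundant member in both cultures. It stood between 1525 and 2142 FPKM in the 12 BMDC libraries, and its reads made up 1.08% to 1.55% of all counts there, ranking 1 to 3 among all genes and first in 4 of 12 libraries. In the 8 BMDM libraries numbered 1 and 2 it stood between 320 and 864 FPKM, or 0.159% to 0.593% of counts. In BMDCs the order of medians in FPKM after Mmp12 was Mmp13 (150.3), Timp1 (73.6), Mmp19 (40.4), Mmp8 (33.7), Mmp14 (15.9), Timp2 (14.2), Mmp9 (2.42), Mmp2 (0.990) and Mmp3 (0.0670). Neighbours in this order overlapped in their ranges over libraries, except that Timp2 stayed above Mmp9 and Mmp2 above Mmp3. Mmp13 reached the range of Mmp12 only in the CRE-labelled DMXAA library numbered 2, at 1598 FPKM, where Mmp12 stood at 2110. In the 10 BMDC libraries other than CRE number 2, Mmp13 was at or below 219.8 FPKM. In BMDMs Timp2 (median 122 FPKM) and Mmp13 came next, with Mmp13 below Timp2 in control libraries (means of 30.9 against 106.5 in WT and 24.7 against 149 in CRE) and above it under DMXAA (127 against 94.5 and 212 against 122). They were followed by Mmp19 (22.8), Mmp8 (13.4), Timp1 (11.5), Mmp14 (11.2), Mmp9 (2.71), Mmp2 (1.66) and Mmp3 (0.0327). There Mmp12 stood clear of Timp2, at 87.7 to 149 FPKM, and of Mmp13, and the members from Mmp19 down overlapped their neighbours. Mmp3 had 0 to 14 counts in BMDCs and 0 to 20 in these BMDMs, passed no filter on low values and was not tested. The other 9 members were tested in each comparison.

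**Figure D1:**
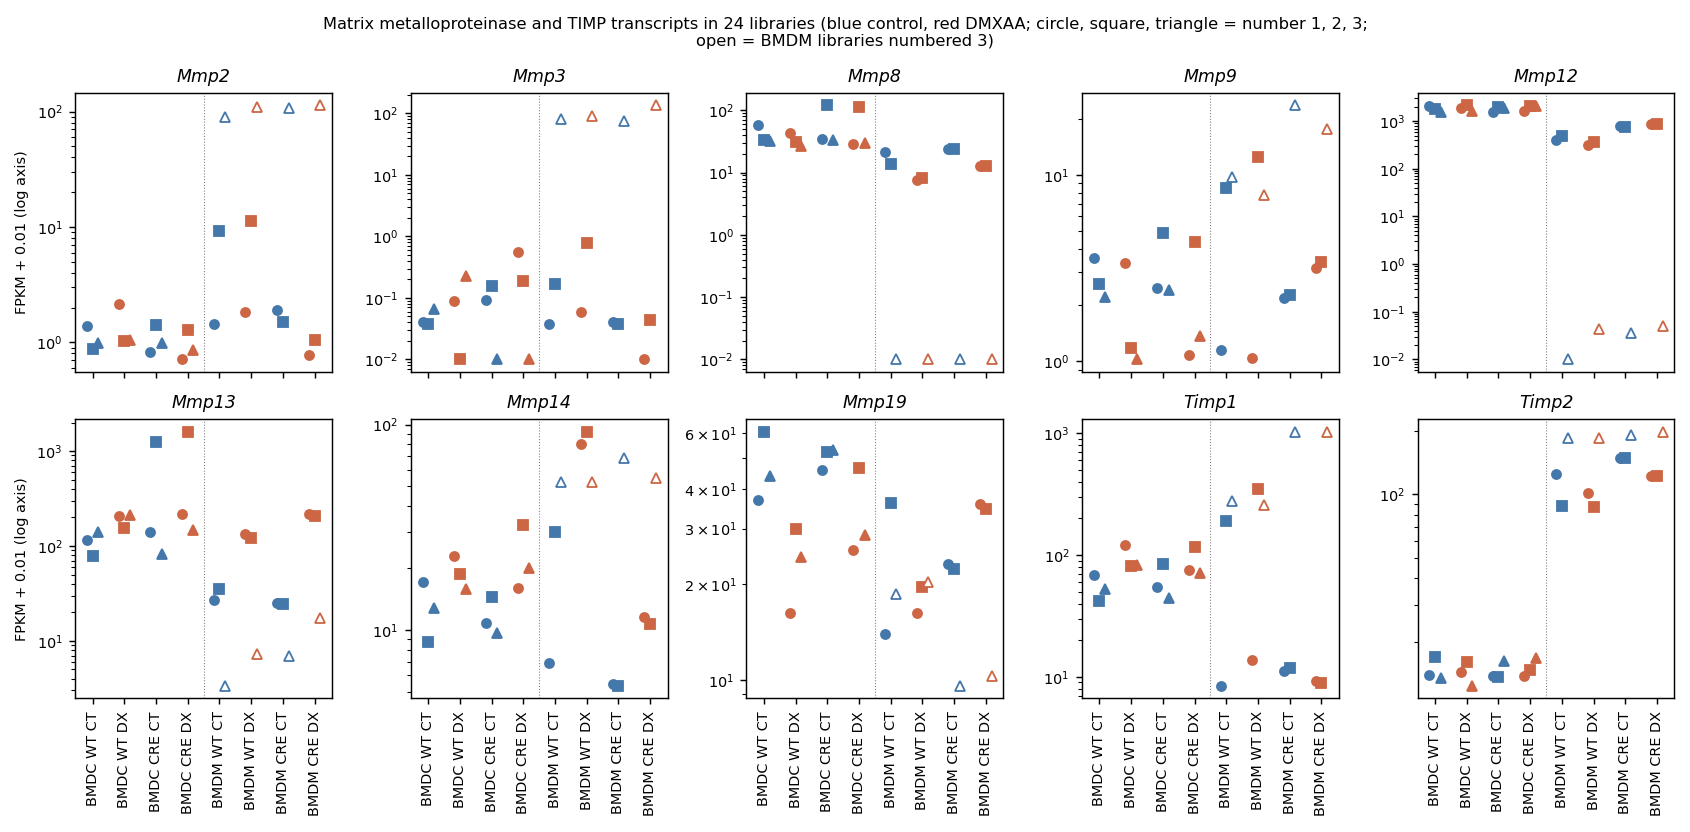
Level of each member in all 24 libraries, as FPKM plus 0.01 on a log axis, by cell type, label and treatment, with the BMDM libraries numbered 3 as open triangles. Mmp12 lay between 1525 and 2142 FPKM in BMDCs and at or below 0.0395 in the open triangles, where Mmp3 reached 135 FPKM.

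The first question was whether BMDCs labelled WT changed these transcripts with DMXAA. Mmp19 fell to 0.491 of its control level, and no other of the 9 tested members was called by edgeR's quasi-likelihood test (adjusted p under 0.05 over all genes). This is 1 of 9 where 32.8% of the 12126 tested genes were called. Mmp19 was at 37.1, 60.6 and 43.8 FPKM in control and at 16.3, 29.8 and 24.3 under DMXAA in libraries 1, 2 and 3, so the groups did not overlap (log2 fold change -1.03 ± 0.28 SE, adjusted p = 0.0150 by edgeR). By edgeR the call ended without the DMXAA library numbered 1 (-0.81, adjusted p = 0.0545) or the control library numbered 2 (-0.80, adjusted p = 0.0693).

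Control and DMXAA libraries with the same number and label deviated together in BMDCs, and with that number as a block 6 of 9 members passed in WT-labelled BMDCs, where the same fit called 49.4% of all genes. In the paired fit Mmp13, Timp1 and Mmp14 rose and Mmp19, Mmp8 and Mmp9 fell. Mmp13 went from 116, 78.5 and 139 FPKM in control to 206, 154 and 212 under DMXAA. The lowest DMXAA library was above the highest control library, and each pair rose by 1.53 to 1.97 times (log2 0.78 ± 0.13 paired, adjusted p = 0.000689 by edgeR). Timp1, the secreted inhibitor, went from 68.8, 42.2 and 52.2 FPKM to 121, 81.5 and 83.5, again with no overlap. Its unpaired log2 fold change was 0.78 ± 0.28 with an adjusted p of 0.0513 by edgeR (0.0414 without the control library numbered 1), and the paired one was 0.79 ± 0.11 with an adjusted p of 0.000316. Mmp14 went from 17.0, 8.71 and 12.7 FPKM to 22.8, 18.6 and 15.8, where the groups overlapped (paired log2 0.58 ± 0.17, adjusted p = 0.0172 by edgeR). By CPM, which has no scaling for library composition, 2 of these 3 pairs were higher under DMXAA. The 2 falls with the least margin were Mmp9, at 3.56, 2.59 and 2.20 FPKM against 3.35, 1.17 and 1.01 (paired adjusted p = 0.0395 by edgeR), and Mmp8, at 59.2, 33.6 and 31.9 against 43.7, 31.2 and 26.5 (paired adjusted p = 0.0452 by edgeR). Mmp12, Mmp2 and Timp2 were not called in either fit. For Mmp12 the direction depended on the scaling, since over both labels it was higher under DMXAA in 5 of 6 pairs by FPKM and lower in 6 of 6 by share of total counts.

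CRE-labelled BMDCs were asked the same questions with 3 pairs of their own. The CRE pairs numbered 1 and 3 lay nearer to the WT pairs numbered 3 and 2 than to their own group, as given below. They are therefore not read as an independent repeat of the WT responses. Mmp14 rose and was the only member called without the block, 1 of 9 against 26.3% of all genes. It stood at 10.75, 14.45 and 9.65 FPKM in control and 15.9, 32.4 and 19.96 under DMXAA, with no overlap (log2 fold change 0.94 ± 0.29, adjusted p = 0.0328 by edgeR). This call ended when any 1 of 4 libraries was left out, the controls numbered 1 and 3 or the DMXAA libraries numbered 2 and 3 (adjusted p between 0.0537 and 0.116 by edgeR). It also ended without both libraries numbered 2 (0.0516) and with scaling by total counts (log2 0.61, adjusted p = 0.0942 by edgeR). In the paired fit 4 of 9 members passed, against 43.6% of all genes: Mmp13, Timp1 and Mmp14 rose and Mmp19 fell. Mmp13 was at 142, 1253 and 81.6 FPKM in control and 219.8, 1598 and 146 under DMXAA, a ratio of 1.28 to 1.79 per pair (paired log2 0.58 ± 0.13, adjusted p = 0.00446 by edgeR). The library numbered 2 stood far above the others at both conditions, so the unpaired groups overlapped. Timp1 went from 54.3, 85.1 and 44.5 to 75.6, 116 and 71.6 FPKM, where each pair was higher under DMXAA while the groups overlapped (paired log2 0.51 ± 0.11, adjusted p = 0.00462 by edgeR). Mmp19 went from 46.0, 52.2 and 53.0 to 25.7, 46.6 and 28.7 FPKM, lower in 3 of 3 pairs (paired log2 -0.65 ± 0.15, adjusted p = 0.00604 by edgeR). Mmp8 and Mmp9 were lower under DMXAA in 3 of 3 pairs each and were not called. Without the DMXAA library numbered 2, Mmp19 was called in the unpaired fit (-0.90, adjusted p = 0.0282 by edgeR), and without the control numbered 2 Timp1 was (0.80, adjusted p = 0.0494).

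**Figure D2:**
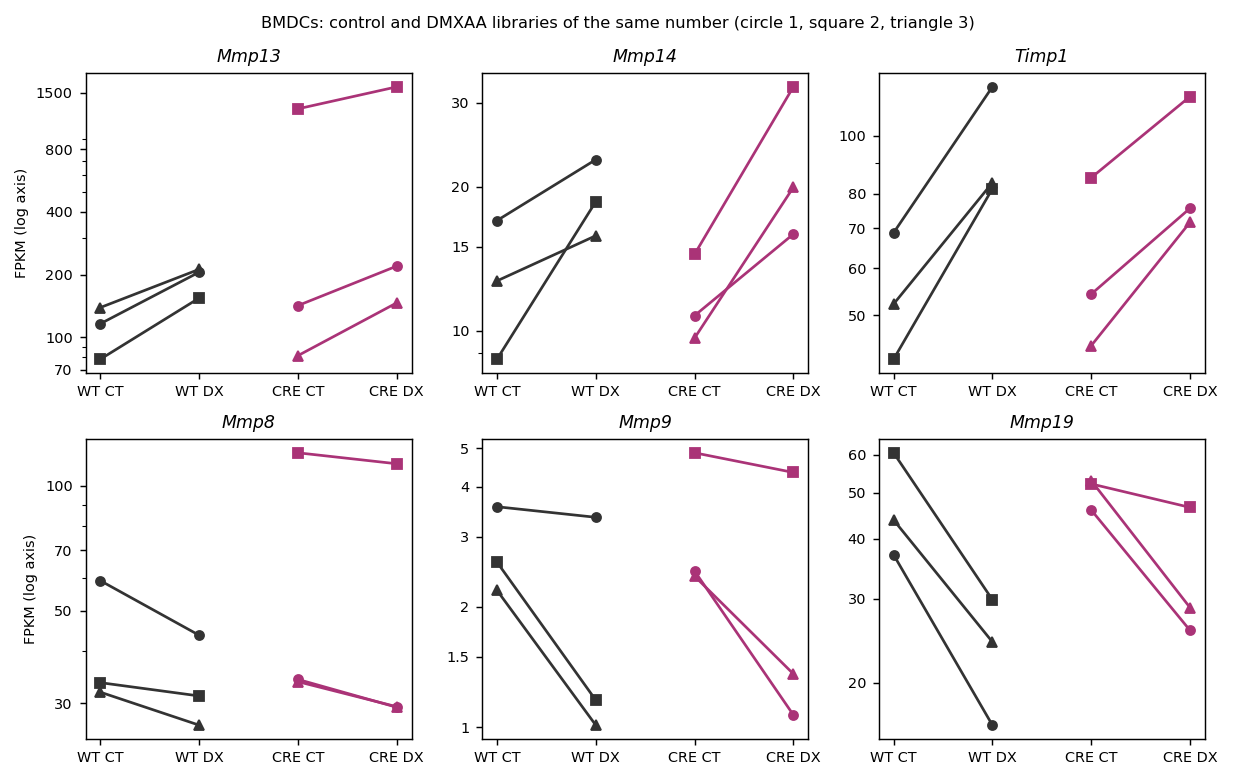
FPKM of 6 members in BMDCs on log axes, with a line joining the control (CT) and DMXAA (DX) library of the same number and label, black for WT and purple for CRE. Mmp13 and Timp1 lines climb and Mmp19 lines descend in 6 of 6 pairs, and the CRE squares (number 2) lie highest for Mmp13 at 1253 and 1598 FPKM. The CRE pairs numbered 1 and 3 lay close to the WT pairs numbered 3 and 2, so the 6 are not read as independent.

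The next comparison asked what the Cre label changed. In BMDCs none of the 9 tested members was called between CRE and WT. Of 12126 genes 0 passed edgeR's test (0%) under DMXAA, in control cells and for the genotype by DMXAA interaction. Before adjustment 110, 110 and 63 genes lay below 0.05, with 0 members among them. DESeq2 called 0, 0 and 1 gene. The paired interaction also gave 0 genes (0%), and 174 before adjustment. Mmp13 had the widest gap, 655 against 191 FPKM as group means under DMXAA (log2 fold change 1.78 ± 1.01, 95% interval -0.43 to 3.99, adjusted p = 1 by edgeR). Without both CRE-labelled libraries numbered 2, a comparison chosen after seeing the data, it was -0.05 ± 0.30. Those 2 libraries, which held the neutrophil transcripts, also had the highest Mmp8, the neutrophil collagenase, at 120.2 and 113 FPKM against 26.5 to 59.2 in the other 10, and the part of the neutrophil markers in this was not tested. For Timp2 the interval under DMXAA was -0.24 to 0.42 on the log2 scale and for Mmp12 -0.54 to 0.62. Some libraries with different labels lay nearer to each other than to their own group. The median chi-square per gene, for which counting noise alone gives a value under 1, was 1.15 for CRE control 1 with WT control 3, 1.38 for WT control 2 with CRE control 3, 1.24 for CRE DMXAA 1 with WT DMXAA 3 and 1.25 for WT DMXAA 2 with CRE DMXAA 3, against 2.41 to 20.8 within groups. The members followed, with Mmp13 at 142 and 139, 78.5 and 81.6, 219.8 and 212, and 154 and 146 FPKM in these pairs.

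In WT-labelled BMDMs a secreted and a membrane-bound collagen-cutting enzyme were higher under DMXAA and another collagenase was lower. Mmp13 and Mmp14 rose and Mmp8 fell, 3 of 9 tested members where 39.6% of 11569 genes were called. Mmp13 stood at 26.8 and 35.0 FPKM in control libraries 1 and 2 and at 134 and 120.3 under DMXAA (3.80-fold, log2 1.93 ± 0.16, adjusted p = 0.000211 by edgeR). Mmp14 stood at 6.86 and 29.97 FPKM in control and at 80.7 and 92.1 under DMXAA (4.32-fold, log2 2.11 ± 0.59, adjusted p = 0.0290 by edgeR). Its controls differed from each other by more than its DMXAA libraries did, and the library at 29.97 is the one with fibroblast transcripts. Without both WT-labelled libraries numbered 2 the Mmp14 change was log2 3.45, and without either DMXAA library in turn the adjusted p was 0.0746 or 0.0823 by edgeR. Mmp8 stood at 21.7 and 14.0 FPKM in control and 7.51 and 8.22 under DMXAA (0.411 of control, log2 -1.28 ± 0.21, adjusted p = 0.00358 by edgeR). Mmp12 stood at 402 and 488 FPKM and then 320 and 358, with no overlap but an adjusted p of 0.0535 by edgeR (log2 -0.50 ± 0.17). With no filter on low values and in both limma fits Mmp12 was called as lower. It was called by DESeq2 (-0.44, adjusted p = 0.0110) and by edgeR without the control numbered 1 (-0.64, adjusted p = 0.0149), which also called Mmp19 (-1.12, adjusted p = 0.00274). Without the control numbered 2 Timp2 was called (-0.49, adjusted p = 0.0185 by edgeR).

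In CRE-labelled BMDMs Mmp13 rose and Mmp8 fell, 2 of 9 against 10.8% of all genes. Mmp13 stood at 25.2 and 24.3 FPKM in control and at 215 and 209 under DMXAA (8.43-fold, log2 3.08 ± 0.16, adjusted p = 9.27e-05 by edgeR). Mmp8 stood at 23.96 and 24.2 FPKM and then at 12.9 and 12.8 (0.525 of control, log2 -0.93 ± 0.20, adjusted p = 0.0346 by edgeR), and this call ended without any 1 of the 4 CRE-labelled libraries (adjusted p between 0.196 and 0.225 by edgeR). Mmp14 stood at 5.41 and 5.34 FPKM and then at 11.6 and 10.7, with no overlap and no call (log2 1.03 ± 0.59, adjusted p = 0.304 by edgeR). Mmp19 went from 23.3 and 22.4 to 35.9 and 34.6 FPKM without a call (log2 0.60 ± 0.40). Libraries 1 and 2 of the CRE label were closer to each other than those of WT, with a median chi-square per gene of 0.908 and 1.47 in CRE control and DMXAA against 13.6 and 9.76 in WT, while the fit used 1 shared spread for both.

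**Figure D3:**
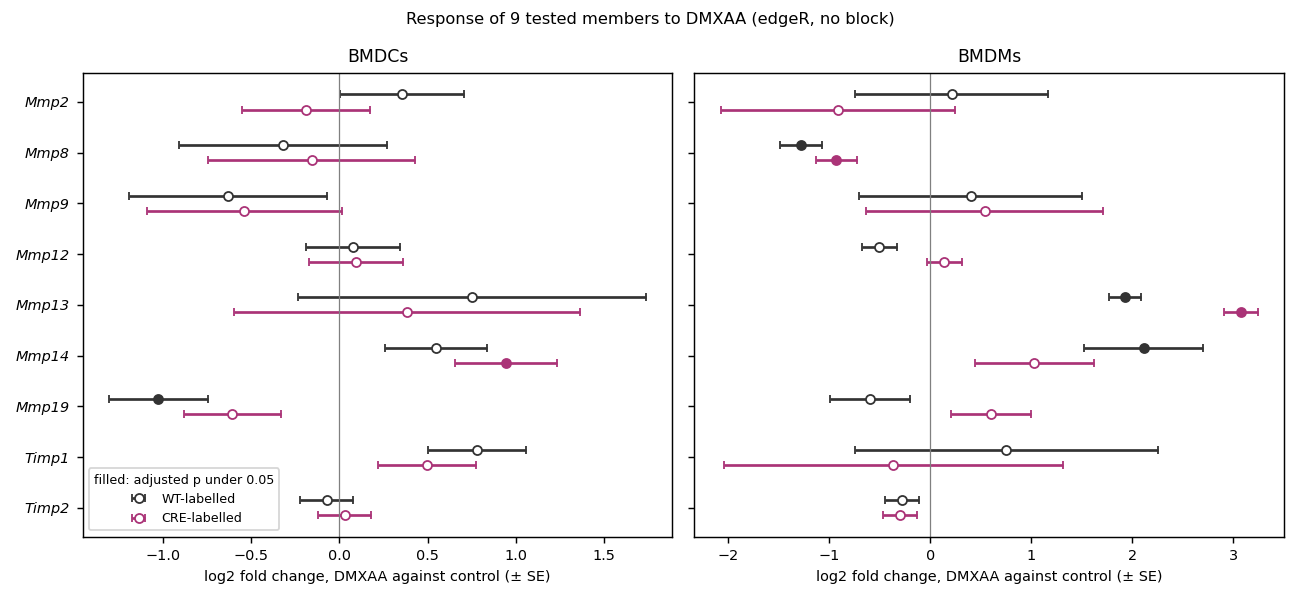
Log2 fold change with DMXAA ± SE for the 9 tested members, BMDCs on the left and BMDMs (numbers 1 and 2) on the right, black for WT and purple for CRE, filled where the adjusted p of the unpaired edgeR fit was under 0.05. Mmp13 in BMDMs stood at 1.93 in WT and 3.08 in CRE, and Mmp8 was below 0 in both.

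Between labels, BMDMs differed under DMXAA in 4 of 9 members, where 19.9% of all genes were called, and Mmp13 and Mmp14 differed in opposite directions. CRE-labelled cells had less Mmp14, at 11.6 and 10.7 FPKM against 80.7 and 92.1 (log2 -2.91 ± 0.61, adjusted p = 0.0201 by edgeR). They had more Mmp12, at 864 and 860 against 320 and 358 FPKM (log2 1.39 ± 0.17, adjusted p = 0.00348 by edgeR), more Mmp13, at 215 and 209 against 134 and 120.3 (log2 0.79 ± 0.15, adjusted p = 0.0150), and more Mmp8, at 12.9 and 12.8 against 7.51 and 8.22 (log2 0.75 ± 0.21, adjusted p = 0.0479). The Mmp8 call also ended with median of ratios scaling, with no filter and with both limma fits (adjusted p between 0.0582 and 0.0741). By edgeR, leaving out either CRE-labelled DMXAA library left Mmp12 as the one member called, and leaving out either WT-labelled one left Mmp12 and Mmp13. Timp1 and Mmp2 had larger differences, log2 -4.28 ± 1.76 and -2.84 ± 1.12, that edgeR did not call (adjusted p = 0.140 and 0.127) and DESeq2 did (adjusted p = 0.0408 and 0.00845). Without both WT-labelled libraries numbered 2 they were -0.53 and -0.96.

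Without agonist 0 of 9 members was called between labels, where 0.0692% of genes were, with 3 members at an unadjusted p under 0.05 and 2 called by DESeq2, Mmp12 and Mmp14. Mmp12 stood at 777 and 764 FPKM in CRE and 402 and 488 in WT control cells (log2 0.75 ± 0.17, adjusted p = 0.422 by edgeR), again without overlap. Without the WT control numbered 1, Mmp14 was called (-2.54, adjusted p = 0.00212 by edgeR). The response to DMXAA itself differed by label for Mmp13, 1 of 9 members against 3.80% of genes. Its response was larger in CRE-labelled BMDMs by log2 1.15 ± 0.22 (2.22-fold, 95% interval 0.64 to 1.66, adjusted p = 0.0422 by edgeR). That call ended without the WT-labelled DMXAA library numbered 1 (adjusted p = 0.0764 by edgeR) and without any 1 of the 4 CRE-labelled libraries (0.205 to 0.240), while the difference was 0.86 without both WT-labelled libraries numbered 2. For Mmp14 the CRE response minus the WT response was log2 -1.08 ± 0.82, with an interval from -3.02 to 0.87 (adjusted p = 0.527 by edgeR). It was called without the WT control numbered 2 (-2.55, adjusted p = 0.00351 by edgeR), and for Mmp19 the difference was called without the one numbered 1 (1.72, adjusted p = 0.0173). Without both WT-labelled libraries numbered 2 the Mmp14 difference was -2.42. In that fit 1 WT library per condition was assumed to vary like the CRE-labelled ones, so no call is given.

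Timp1, Mmp2 and Mmp9 in WT-labelled BMDMs differed more between library numbers than with DMXAA. Timp1 stood at 8.44 and 13.6 FPKM in the WT control and DMXAA libraries numbered 1, at 8.86 to 11.9 in the 4 CRE-labelled ones, and at 191 and 348 in those of WT numbered 2. Mmp2 stood at 9.24 and 11.4 FPKM in the last pair against 0.768 to 1.89 in the other 6 libraries, and Mmp9 at 8.45 and 12.5 against 1.02 to 3.40. By CPM, the fibroblast markers in that pair amounted to 3.997% in control and 3.38% under DMXAA of their level in the WT-labelled libraries numbered 3 of the same treatment. On the same CPM scale Mmp2 amounted to 8.67% and 6.03% of its level there, Mmp3 to 0.163% and 0.485%, Timp1 to 57.5% and 78.2%, and Mmp9 to 73.5% and 93.2%. The part of fibroblast transcripts in these values was not tested.

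**Figure D4:**
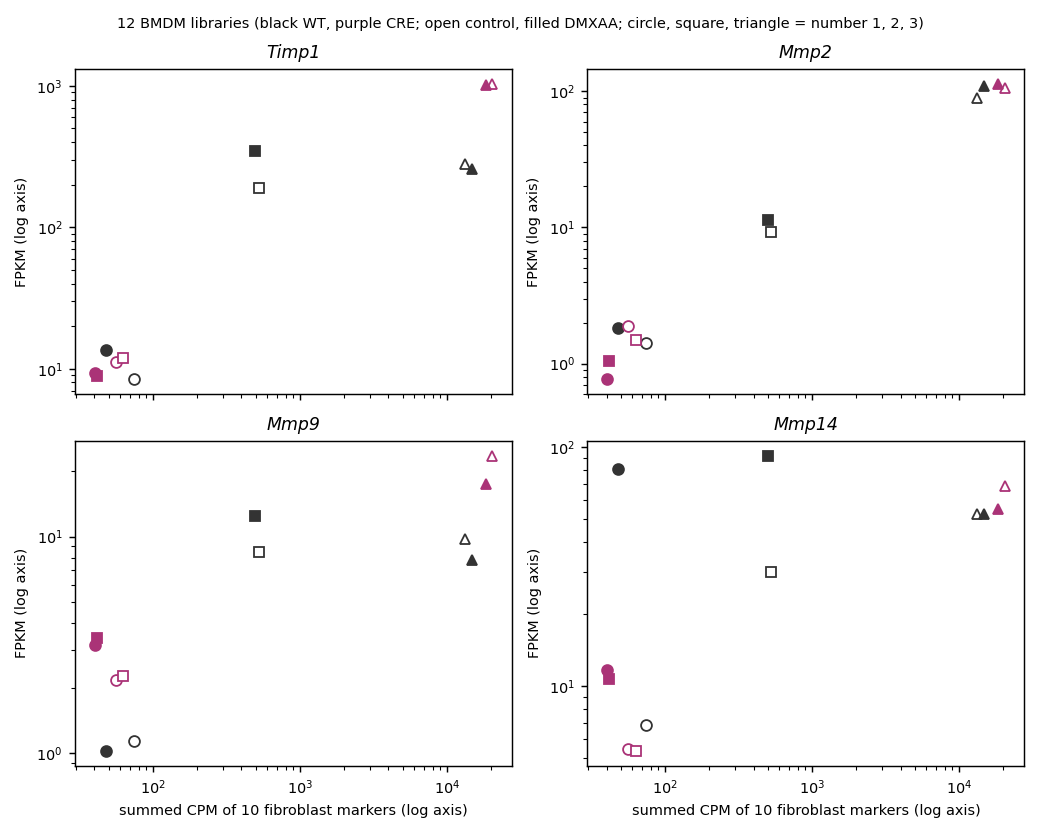
FPKM of Timp1, Mmp2, Mmp9 and Mmp14 against the summed CPM of 10 fibroblast markers in the 12 BMDM libraries, both axes log, with squares for number 2 and triangles for number 3. The WT squares (black) lie between the 2 clouds on the horizontal axis at 498 and 530 CPM, with Timp1 at 191 and 348 FPKM.

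The libraries numbered 3, labelled BMDM but with fibroblast transcripts, had a different set of these enzymes. Mmp3 stood at 81.9 and 91.9 FPKM in WT control and DMXAA and at 75.4 and 135 in CRE, against at most 0.769 in the other 8 BMDM libraries. Mmp2 stood at 90.03 to 113 FPKM, Timp2 at 185 to 198 and Timp1 at 280.2 and 258 in WT and 1029 and 1018 in CRE. The macrophage elastase Mmp12 was at 0 to 7 counts and Mmp8 at 0 counts in all 4, and a count of 0 allows up to 3 by counting error. Mmp13 was low but again higher under DMXAA, at 3.35 and 7.27 FPKM in WT and 6.92 and 17.5 in CRE. With these, Mmp13 was higher in the DMXAA library than in the same-numbered control in 12 of 12 cases, by FPKM and by CPM. Mmp14 was higher in 10 of 12, and by FPKM the exceptions were the libraries numbered 3 (ratios of 0.997 in WT and 0.802 in CRE). These tallies cross cell types, and in BMDMs the same number is not taken as a pair. The share of all genes with such a tally was not counted, so the tallies are not read as results. With 1 library numbered 3 per group there is no replicate check.

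Resting BMDCs of the WT label differed from BMDMs in 3 of 9 members, where 29.7% of 13368 genes were called. Mmp12 was 3.86-fold higher in BMDCs (1786 ± 255 FPKM, SD, n = 3, against 445 ± 60.4, n = 2, adjusted p = 3.03e-05 by edgeR). Timp2 was lower in BMDCs, at 13.9, 16.9 and 13.4 FPKM against 125 and 87.9 (log2 -2.91 ± 0.18, adjusted p = 1.41e-08 by edgeR). Mmp2 was lower too, at 1.07 against 5.33 FPKM as means (adjusted p = 0.0132 by edgeR), a call that ended without the BMDM control library numbered 2 (log2 -0.43) or the BMDC one numbered 2 (adjusted p = 0.0545). By edgeR Mmp19 was called as higher in BMDCs without the BMDM control numbered 2 (1.74, adjusted p = 0.00455), and Mmp14 as lower without the one numbered 1 (-1.27, adjusted p = 0.0194). Under DMXAA 5 of 9 differed, where 30.7% of genes were called. Mmp12 was 5.85-fold higher in BMDCs and Mmp8 4.44-fold higher, at 43.7, 31.2 and 26.5 against 7.51 and 8.22 FPKM (adjusted p = 3.72e-06 and 0.0173 by edgeR). Timp2 (log2 -2.67 ± 0.17), Mmp14 (-2.13 ± 0.43) and Mmp2 (-2.21 ± 0.67) were lower in BMDCs (adjusted p = 3.23e-08, 0.00143 and 0.0201 by edgeR). Without the BMDM DMXAA library numbered 2 the Mmp8 and Mmp2 calls ended (adjusted p = 0.0867 and 0.782 by edgeR). Mmp8 also lost its call without the one numbered 1 (0.114), where Mmp9 gained one (-2.74), and Mmp2 without the BMDC DMXAA library numbered 2 or 3. Timp1 was not called, and its sign turned without both WT-labelled BMDM libraries numbered 2, when it was higher in BMDCs by log2 2.70 in control and 2.85 under DMXAA. For the difference in DMXAA response between the cell types 0 of 9 members was called where 2.49% of genes were, with 1 member at an unadjusted p under 0.05 and 0 by DESeq2. That member was Mmp14, whose BMDC response minus BMDM response was log2 -1.55 ± 0.61 (adjusted p = 0.249 by edgeR) and, without the BMDM control numbered 2, -3.01 (adjusted p = 0.00671).

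Of the other 17 family members, 2 passed the filter in BMDCs, Mmp25, a GPI-anchored enzyme of leukocytes, and Mmp23, and both changed with DMXAA in the WT label where 32.8% of all genes did. Mmp25 rose with DMXAA in WT-labelled BMDCs, from a mean of 5.79 to 30.5 FPKM (log2 2.36 ± 0.68, adjusted p = 0.0206 by edgeR). CRE-labelled BMDC libraries 1, 2 and 3 stood at 10.9, 24.035 and 4.29 FPKM in control and at 39.7, 44.5 and 17.1 under DMXAA. Each was higher than its same-numbered control, while the groups overlapped and Mmp25 was not called there. In BMDMs it reached 1 FPKM only in the WT-labelled DMXAA libraries, at 3.70 and 2.04, against 0.295 and 0.199 in CRE-labelled ones and at most 0.0369 in controls. It passed the filter there only through the group where it was high, so no test is given. Mmp23 fell in BMDCs of both labels (log2 -0.74 ± 0.26 in WT and -0.88 ± 0.25 in CRE). Mmp27 stood at 0.253 to 0.366 FPKM in WT-labelled control BMDCs and at 6.23 and 3.32 in BMDMs. Timp3 stood at 0.445 FPKM in the BMDM control numbered 1, within the 0.0794 to 0.725 of BMDCs, and at 4.44 in the one numbered 2, which held fibroblast transcripts. Among 21 ADAM and ADAMTS proteases, 4 of 8 tested changed with DMXAA in WT-labelled BMDCs, 1 up and 3 down (32.8% of all genes). Adam17, the TNF-releasing sheddase, rose from 12.2 to 22.9 FPKM and Adam8, a protease of myeloid cells, fell from 301 to 131. In WT-labelled BMDMs 4 of 10 changed, 2 up and 2 down (39.6% of all genes), again with Adam17 higher (32.2 to 61.3 FPKM) and Adam8 lower (421 to 308). In CRE-labelled BMDMs Adam8 rose instead, from 355 to 582 FPKM, the only one called of 10 (10.8% of all genes). Its adjusted p there was 0.0499 by edgeR, at the threshold. The difference in its response between labels was also called near it (log2 1.25 ± 0.24, adjusted p = 0.0455 by edgeR). Values with libraries left out are not given for Adam8. Of 17 genes of plasminogen activation and MMP cofactors, 4 of 13 tested rose and 0 fell with DMXAA in WT-labelled BMDCs (32.8% of all genes). The count includes Plat, with means of 0.0591 and 1.48 FPKM in CRE-labelled control and DMXAA BMDCs. Plat may have passed the filter only through the DMXAA libraries, so its call is not read as a result. The 4 also included Furin, the convertase that matures pro-MMP14, from 32.9 to 95.4 FPKM, and Itgav, an integrin subunit, from 5.45 to 13.5. Furin rose in CRE-labelled BMDCs as well (31.1 to 86.0 FPKM) and in WT-labelled BMDMs (16.1 to 41.1), where Lrp1, an uptake receptor for proteases and their inhibitors, fell from 87.2 to 40.3. Between labels under DMXAA, BMDMs of CRE had less Furin and Plaur, the urokinase receptor, 2 of 11 tested against 19.9% of all genes (log2 -0.86 ± 0.23 and -0.64 ± 0.11). Of the ADAM and ADAMTS genes 3 of 10 differed, Adam8 and Adamts1 higher and Adam17 lower. In BMDCs 0 genes of the 3 lists were called between labels. In resting WT-labelled cells 7 of 13 plasminogen and cofactor genes differed between the cell types, against 29.7% of all genes, with 2 higher in BMDCs, Lcn2 (9.60 against 0.450 FPKM), whose product binds MMP9, and Plaur (371 against 73.0). The other 5 were lower, and 4 of 10 ADAM and ADAMTS genes were lower and 0 higher. These include Adamts2 and Adam33, at or below 0.142 and 0.578 FPKM in all BMDCs, which passed the filter only through BMDMs. Lcn2 was at or below 1.01 FPKM in BMDMs, and Plat at or below 1.97 in BMDCs. The calls of such genes rest on the group where they are high and are not read as results.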

How the data were processed

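RNA sequencing of 24 libraries was deposited as 1 table. The authors counted reads per gene with featureCounts 1.5.0-p3 after fastp and HISAT2 2.0.5 alignment, per the submitters' processing notes, which also name CASAVA 1.8, DESeq2 1.20.0 and the builds GRCm38 and mm10. The deposited FPKM values are those counts per kilobase of the authors' gene length and per depth, times 1 factor per library of 0.751 to 1.46, so they carry a composition scaling. The table's fold changes and p-values from the authors' own comparisons were not used. Each of the 48 columns of per-library values names 1 library, and all were used.

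Counts were tested with edgeR 4.0.16 (glmQLFit and glmQLFTest, R 4.3.3, TMM scaling, two-sided), with Benjamini-Hochberg adjustment over all genes tested and calls at an adjusted p under 0.05. The BMDC fit held 12 libraries and genes with FPKM of at least 1 in at least 3, the BMDM fit 8 libraries and the cell type fit 20, each with at least 2 such libraries. DESeq2 1.42.0, limma 3.58.1 on log2(FPKM + 1) and log2(FPKM + 0.1), other scalings, no filter and left-out libraries were alternatives. The fits were tested on simulated data. All members were named in the text, and from each of 3 other gene lists at most the 3 called genes with the largest change and a mean FPKM of at least 5, plus any gene in a count of 3 or fewer. The members and lists were chosen with earlier results of these data known.

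Same-numbered control and DMXAA BMDC libraries were checked for pairing within each label. Their deviations from the group means correlated at 0.645, 0.395 and 0.482 in WT and 0.515, 0.677 and 0.571 in CRE, so the replicate number was used as a block beside the main fit. The pairing comes from these data, not from the labels. Intervals come from the SE of the edgeR fit and cover the spread between these libraries as well as counting error. The limit of a count of 0 covers counting error only. Protein sequences were not used here. Some genes of these lists are counted but not reported here by name.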

Additional observations from a re-analysis of the deposited data

Results flagged for a closer look

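The DMXAA response of Mmp13 differed between the labels in BMDMs by the test of the difference itself, with an interaction of log2 1.15 (adjusted p = 0.0422 by edgeR). The call ended without any 1 of 5 libraries (0.0764 to 0.240), with no filter (0.0566) and with limma on log2(FPKM + 0.1) (0.0505). In the 4 libraries labelled BMDM and numbered 3, which the tests left out, 3 members lay above the other 8 BMDM libraries. The lowest value of Mmp2 was 90.03 FPKM against a highest of 11.4 in the others, that of Mmp3 75.4 against 0.769, and that of Timp2 185 against 149.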

How the results depend on the processing

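Counts of members called moved by over 1.5 times, or between 0 and 1 or more, in some settings, and the cause was not tested. With the block within genotype the share of all genes called with DMXAA was 49.4% in WT and 43.6% in CRE BMDCs. It was 53.3% in WT and 26.4% in CRE BMDMs, and 15.1% for the interaction in BMDMs. Other settings are given without the share of all genes, so their counts are not read as results about the members. In WT-labelled BMDCs the 1 member called with DMXAA became 2 with median of ratios scaling, total counts scaling or DESeq2, 6 with the replicate block within genotype and 0 to 2 without 1 library, each time a library of the groups compared. In CRE-labelled BMDCs 1 became 2 with a replicate block over both labels, 4 with the block within genotype and 0 to 2 without 1 library. In WT-labelled BMDMs 3 became 5 with total counts or with the block within genotype, and 2 to 5 without 1 library. In CRE-labelled BMDMs 2 became 1 with no filter and 1 without any 1 of its own 4 libraries. Between labels in BMDMs under DMXAA 4 became 1 to 2 without 1 library, and in control cells 0 became 2 with DESeq2 and 0 to 1 without 1 library. For the interaction in BMDMs 1 became 0 with no filter or limma on log2(FPKM + 0.1), 3 with the block within genotype and 0 to 2 without 1 library. Between cell types 3 in control became 2 to 4, 5 under DMXAA became 3 to 5 and 0 in the interaction became 0 to 1 without 1 library. In BMDCs the label comparisons stayed at 0 without any 1 library.

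With all BMDM libraries, numbers 3 included, the counts were 0 for each DMXAA response, 0 between labels under DMXAA and 0 for the interaction in BMDMs, and 1 for each cell type comparison. Without both WT-labelled BMDM libraries numbered 2, an analysis that takes the spread of the lone WT libraries from the others, they were 6 in WT with DMXAA, 9 and 5 between labels under DMXAA and in control, 7 for the interaction and 1 for the cell type interaction. There 13 of 63 member values turned sign, 0 of them called with those libraries kept, and 5 were called after turning: Mmp9 between labels was 1.74 under DMXAA and 0.95 in control, Mmp19 in control was 0.69, and Timp1 in BMDCs against BMDMs was 2.70 in control and 2.85 under DMXAA. In BMDMs the numbers pair only 2 libraries per label, with correlations of 0.656 in WT and 0.0310 in CRE, so they are not taken as pairs. Of 1737 alternatives for single members' values, 1602 kept their side of the threshold with or without a turn of sign, 66 lost the call, 64 gained it and 5 turned sign with a call. In all, 155 turned sign, and 0 of these were called in the main analysis. Under scaling by total counts the median log2 fold change of all genes with DMXAA was -0.36 in WT and -0.34 in CRE BMDCs. It was -0.59 in WT and -0.24 in CRE BMDMs. With TMM these medians were 0.00687, -0.00785, -0.0777 and -0.0100. Total counts scaling and leaving out both CRE-labelled BMDC libraries numbered 2 were chosen after seeing the data. Depth limits Mmp3, Mmp2 and Mmp9, which had few reads in most libraries.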
